A study of Homo sapiens with 6 samples.

Results

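The N-myc downstream-regulated gene (NDRG) family was followed in iron-chelated DMS-53 cells, an established line of human small cell lung carcinoma. Its members were taken as every probe set of the array whose single gene symbol is NDRG1, NDRG2, NDRG3 or NDRG4, which gave 8 of 54675 probe sets, for 4 of 19775 genes. NDRG1 and NDRG4 had 1 probe set each and NDRG2 and NDRG3 had 3 each, and all 8 passed the filter on low values. The cells were kept for 24 h in medium with 25 µM Dp44mT, in medium with 250 µM desferrioxamine (DFO) or in RPMI control medium, with 2 arrays per group numbered by set. Dp44mT is a synthetic thiosemicarbazone chelator of iron and copper that crosses membranes readily, and DFO is a bacterial siderophore. The doses differ, since DFO was given at a higher concentration for its poor entry into cells, per the series' design text. All arrays came from 1 cell line, and nothing in the labels says that the sets were separate cultures. The p-values then measure only how far these arrays spread, which may be technical.

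NDRG proteins share an alpha/beta hydrolase fold but lack the catalytic residues of hydrolases. NDRG1 is known as a metastasis suppressor in several tumours, and its transcription rises when cells lose iron or oxygen, through hypoxia-inducible factors (HIF) and by other routes. NDRG2 is known as a tumour suppressor and a marker of astrocytes, NDRG3 as a lactate-binding protein that oxygen-dependent prolyl hydroxylation marks for degradation, and NDRG4 as a gene of heart and brain that is often methylated in colorectal cancer. In GRCh38.p14, NDRG1 lies on chromosome 8 from 133237175 to 133297252, NDRG2 on chromosome 14 from 21016763 to 21070872, NDRG3 on chromosome 20 from 36651771 to 36746090 and NDRG4 on chromosome 16 from 58463715 to 58515387.

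The arrays were not equally bright. Array medians of deposited intensity were 83.6 in set 1 and 49.9 in set 2 for Dp44mT, 85.5 and 63.0 for DFO, and 88.9 and 88.8 for control. The first principal component, with 70.3% of the variance, placed both chelator arrays of set 2 farthest from the controls. The 3' over 5' signal of ACTB, which grows as RNA degrades, lay between 1.14 and 1.41. Because of the unequal brightness, values were taken as log2(intensity + 16) and quantile normalized, and each difference below is on that scale unless it is called deposited. Of the neuroendocrine markers that define the line's lineage, all 11 with a usable probe set (INSM1, SYP, CHGA, NCAM1 and others) lay above the filter limit of 5.55 on every array. Their summed normalized intensity was 19469 and 18713 in Dp44mT, 20164 and 20097 in DFO and 24457 and 26916 in control. Their median log2 difference was −0.39 in Dp44mT and −0.21 in DFO, against 0.01 and −0.03 over all probe sets tested. The markers that passed in Dp44mT, 1 higher and 1 lower, do not stand for the list. INSM1, a neuroendocrine transcription factor gene, fell by 3.37 on the log2 scale in Dp44mT (limma adjusted p = 0.0154), with a difference of −2.21 in DFO (adjusted p = 0.0523). ENO2, the neuronal enolase gene, rose 4.09-fold in Dp44mT and 3.35-fold in DFO (adjusted p = 0.0217 and 0.0426), and the other 9 did not pass in either. The part of these markers in the results below was not tested. In such bulk samples, fewer cells of a type and less RNA per cell cannot be told apart.

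NDRG1 was the member that passed the test, and it rose in both chelators. Its probe set, 200632_s_at, read 7077 and 4933 units of deposited intensity on the Dp44mT arrays of set 1 and set 2, 7945 and 6152 in DFO and 2001 and 2121 in control. Every chelator array was above both control arrays, including the 2 dim arrays of set 2. After normalization, NDRG1 averaged 12.67 ± 0.13 in Dp44mT and 10.65 ± 0.21 in control on the log2 scale (SD, n = 2 each), a 4.05-fold rise. The log2 difference was 2.02 (SE 0.21, 95% interval 1.48 to 2.55, limma adjusted p = 0.0251). In DFO the mean was 12.76 ± 0.14, against the same control arrays, a 4.31-fold rise. The log2 difference was 2.11 (SE 0.21, 95% interval 1.57 to 2.64, limma adjusted p = 0.0303).

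So 1 of the 8 family probe sets passed in each chelator. Among all 41006 probe sets tested, 1.63% passed in Dp44mT: 1.07% rose and 0.563% fell. In DFO 0.588% passed: 0.568% rose and 0.0195% fell. Of all probe sets tested, 0.858% had a larger rise than NDRG1 in Dp44mT and 0.502% in DFO. On the deposited scale, with no scaling between arrays, the NDRG1 differences were 1.51 in Dp44mT and 1.75 in DFO, and neither passed (limma adjusted p = 0.205 and 0.649). There the median of all probe sets was −0.46 in Dp44mT and −0.30 in DFO, so NDRG1 stood 1.98 and 2.05 above it. The calls also depend on single arrays. Without control replicate 1 or control replicate 2, the adjusted p was 0.306 and 0.379 in Dp44mT and 0.372 and 0.488 in DFO. Without Dp44mT replicate 1 or 2 it was 0.0908 and 0.142 in Dp44mT and 0.0713 both times in DFO, and without DFO replicate 1 or 2 it was 0.14 and 0.185 in DFO, while in Dp44mT it stayed at 0.0455. The difference itself lay between 1.87 and 2.16 in Dp44mT and between 1.96 and 2.25 in DFO in those fits. Without either control array 0 probe sets of the whole table passed in either chelator (at an unadjusted p under 0.05, 4252 and 3553 in Dp44mT and 2057 and 1697 in DFO), so the same holds for every other call given here.

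**Figure D1:**
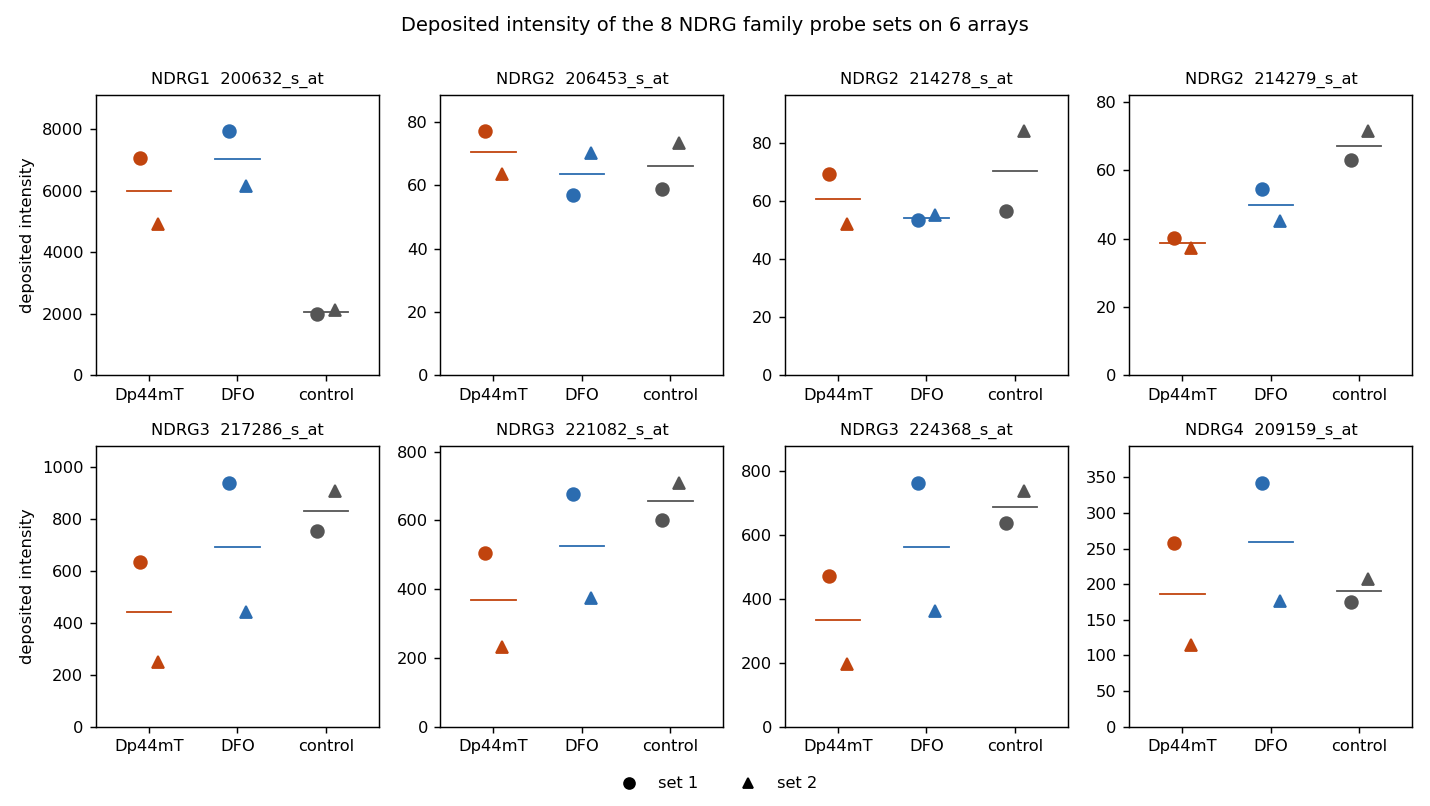
Deposited intensity (vertical axis, linear, from 0) of each NDRG family probe set on the 2 Dp44mT, 2 DFO and 2 control arrays; circles are set 1, triangles set 2, and horizontal lines the mean of the 2 arrays. All 4 chelator arrays of NDRG1, between 4933 and 7945, lie above the control arrays at 2001 and 2121, while the set 2 chelator arrays of NDRG3 and NDRG4 lie below those of set 1.

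**Figure D2:**
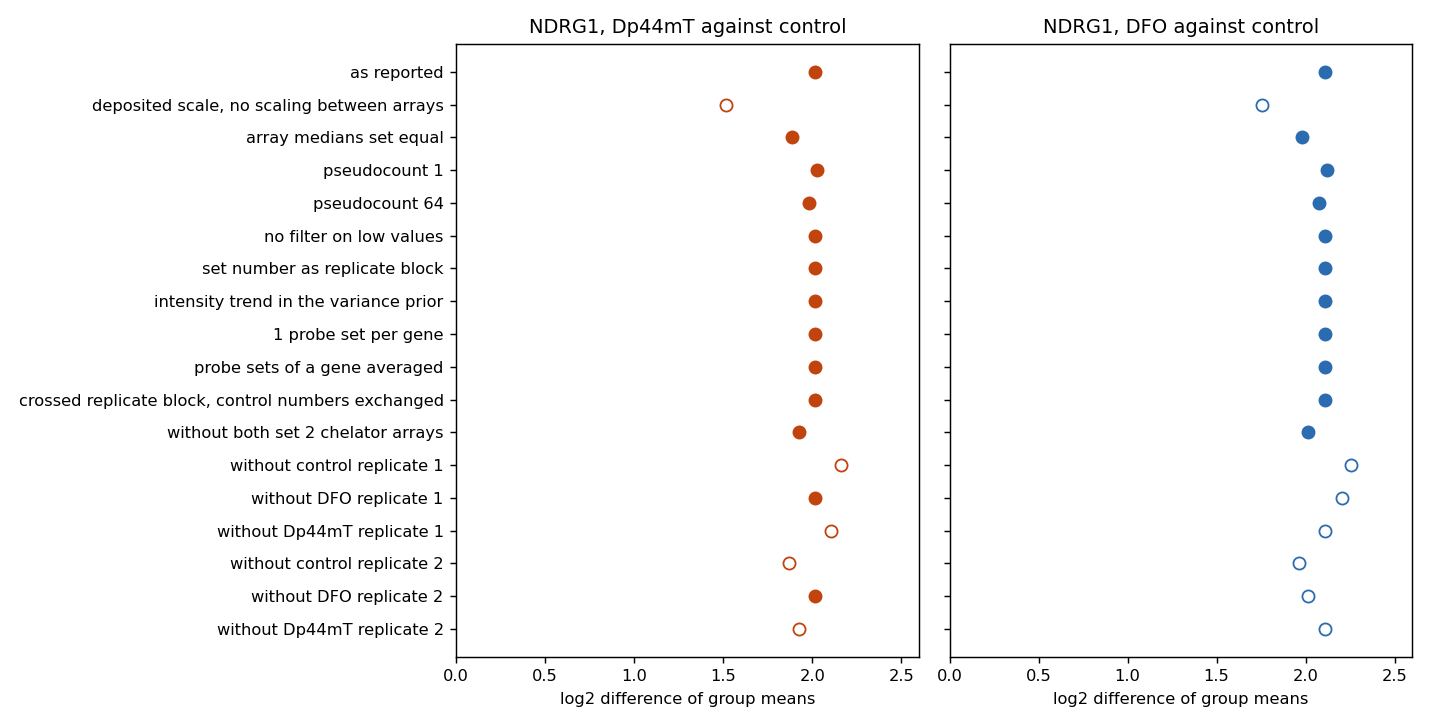
NDRG1 difference from control on the log2 scale (horizontal axes) in Dp44mT and in DFO under each processing setting (vertical axis); filled points have an adjusted p under 0.05. The value stays between 1.51 and 2.25 throughout, and open points are the deposited scale and settings that leave out 1 array, 4 of 6 in Dp44mT and 6 of 6 in DFO.

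The size of the NDRG1 rise differed between the sets, and its order turned with the scaling. Within set 1, NDRG1 was 3.43-fold higher in Dp44mT than in control and 3.65-fold higher in DFO. Within set 2 the folds were 4.77 and 5.10. On the deposited values, where set 2 chelator arrays are dim, they were 3.54 and 3.97 in set 1 and 2.33 and 2.90 in set 2. Each of these 8 folds is above 1, within either set and on either scale.

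Dp44mT and DFO gave NDRG1 levels that lay close together. The normalized levels were 12.58 and 12.76 on the Dp44mT arrays and 12.66 and 12.86 on the DFO arrays, so the groups overlapped. Dp44mT minus DFO was −0.09 on the log2 scale (SE 0.21, 95% interval −0.63 to 0.44, limma adjusted p = 0.972). The interval allows differences of that width in either direction, and the doses were not matched. In this comparison 0% of the probe sets passed in limma, with 1368 at an unadjusted p under 0.05.

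Fibroblast markers summed to more on the set 2 chelator arrays, and to less on the set 2 control array, than on the set 1 arrays. The summed normalized intensity of 10 fibroblast markers was 1435 and 3396 in Dp44mT, 1183 and 2737 in DFO and 1446 and 842 in control, for set 1 and set 2. Of the 8 markers tested, 0 passed in either chelator, and the median log2 difference of the list was −0.09 in set 1 and 0.34 in set 2 for Dp44mT, and −0.26 and 0.11 for DFO. COL1A2, COL3A1, DCN and POSTN, all genes of the extracellular matrix, had differences between 2.84 and 3.81 in set 2 and between −0.54 and −0.23 in set 1. Other markers of the list did not share this. In set 2, LUM differed by −0.46 in Dp44mT and −0.23 in DFO, COL1A1 by 0.44 and 0.12, and THY1 by 0.10 and 0.10. The defining genes PDGFRB and FAP lay below the filter limit, with set 2 differences of 0.25 and −0.31 for PDGFRB and −1.01 and −0.30 for FAP. The NDRG1 difference was 1.78 in Dp44mT and 1.87 in DFO in set 1, and 2.25 and 2.35 in set 2. The sums of 10 endothelial markers were 989 and 2348 in Dp44mT, 912 and 1954 in DFO and 974 and 608 in control, and those of 8 leukocyte markers were 988 and 1376 in Dp44mT, 731 and 1145 in DFO and 887 and 1064 in control. The median endothelial difference was −0.12 in set 1 and 0.34 in set 2 for Dp44mT, and 0.15 and 0.38 for DFO. For the leukocyte list it was 0.27 and 0.58 for Dp44mT, and 0.10 and 0.28 for DFO. On each array 3 or 4 of the 10 endothelial markers lay below the filter limit, so the sums rest on part of the list. Of the 7 tested markers in each of these lists, 0 passed in either chelator. The part of these markers in the results for the family was not tested.

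NDRG4, with probe set 209159_s_at, had values above control in both chelators after normalization but did not pass. It read 257 and 115 units of deposited intensity on the Dp44mT arrays, 342 and 177 in DFO and 175 and 207 in control. On that deposited scale the groups overlapped, because the set 1 chelator arrays lay above both controls and 1 Dp44mT array below both. Normalized levels were 8.0 and 7.73 in Dp44mT, 8.08 and 7.96 in DFO and 7.31 and 7.52 in control, with every chelator array above both controls. Such a separation is common here: chelator and control arrays did not overlap in 61.3% of all probe sets in Dp44mT (28.5% upward, 32.8% downward) and in 44.8% in DFO (17% upward, 27.8% downward). Of the 8 family probe sets, 6 were separated in Dp44mT, 3 of them upward, and 3 in DFO, 2 of them upward. The difference was 0.44 in Dp44mT (SE 0.21, 95% interval −0.08 to 0.97, limma adjusted p = 0.291). In DFO it was 0.60 (SE 0.21, 95% interval 0.08 to 1.13, unadjusted p = 0.0309 and adjusted p = 0.387 in limma). With the deposited brightness kept, the Dp44mT value turned to −0.12, against the median of −0.46 over all probe sets.

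NDRG3 had 3 probe sets that moved together over the 6 arrays, with Pearson correlations between 0.90 and 0.98 that also hold what the arrays share in brightness and scaling. The probe set 217286_s_at read 635 and 251 units of deposited intensity on the Dp44mT arrays, 939 and 442 in DFO and 751 and 906 in control. The probe set 221082_s_at read 505 and 230 on the Dp44mT arrays, 676 and 375 in DFO and 601 and 710 in control. The third, 224368_s_at, read 473 and 196 on the Dp44mT arrays, 764 and 361 in DFO and 639 and 737 in control. In each of the 3, the set 2 Dp44mT array was the lowest of the 6 and the set 1 DFO array or a control array the highest. In normalized values, both Dp44mT arrays lay below both controls in each of the 3 probe sets. The differences were −0.31, −0.20 and −0.44, and none passed in limma (unadjusted p between 0.0825 and 0.324, adjusted p between 0.291 and 0.512). The 95% interval was −0.84 to 0.21 for 217286_s_at, −0.67 to 0.26 for 221082_s_at and −0.95 to 0.08 for 224368_s_at.

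In DFO the NDRG3 values sat at control. The differences were −0.0027, −0.016 and −0.028 on the log2 scale (limma adjusted p between 0.971 and 0.998), with 95% intervals between −0.54 and 0.52. DFO and control arrays overlapped in all 3 probe sets. For Dp44mT minus DFO, the differences were −0.31, −0.18 and −0.41, and none passed (limma adjusted p = 0.969 for each). Both Dp44mT arrays lay below both DFO arrays in these 3 probe sets. Of all probe sets, 25.4% had no overlap between the chelators, 12.4% with Dp44mT lower and 13% with Dp44mT higher. With array medians set equal in place of quantile normalization, the Dp44mT differences from control were −0.64, −0.53 and −0.75, and they did not pass either (limma adjusted p between 0.334 and 0.42).

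The 3 probe sets of NDRG2 read between 37.2 and 84.2 units of deposited intensity over the 6 arrays, and their normalized levels ran from 5.68 to 6.84 against the filter limit of 5.55, which is a percentile and no detection limit. On their arrays they lay between the percentiles 29.5 and 56.9 of all probe sets. The probe set 206453_s_at read 77.1 and 63.7 on the Dp44mT arrays, 57.1 and 70.3 in DFO and 58.7 and 73.4 in control, with no separation of the groups on the deposited scale. After normalization both Dp44mT arrays, at 6.41 and 6.84, lay above both control arrays, at 6.07 and 6.29. The probe set 214278_s_at read 69.4 and 52.1 in Dp44mT, 53.7 and 55.1 in DFO and 56.7 and 84.2 in control, and 214279_s_at read 40.1 and 37.2 in Dp44mT, 54.6 and 45.3 in DFO and 63.0 and 71.5 in control. On the deposited scale 214279_s_at was lower in both chelators than in both controls, and after normalization this held for DFO, while a Dp44mT array overlapped the controls. The 3 probe sets did not all run alike. The Dp44mT differences were 0.45 for 206453_s_at, 0.19 for 214278_s_at and −0.28 for 214279_s_at, and the DFO differences were 0.19, −0.06 and −0.13. None passed in limma (adjusted p between 0.386 and 0.655 in Dp44mT and between 0.826 and 0.947 in DFO). Pearson correlations over the 6 arrays were 0.84 between 206453_s_at and 214278_s_at, and 0.01 and 0.21 for the pairs with 214279_s_at. The 95% interval for 206453_s_at in Dp44mT, −0.27 to 1.16, includes the values found for NDRG4.

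**Figure D3:**
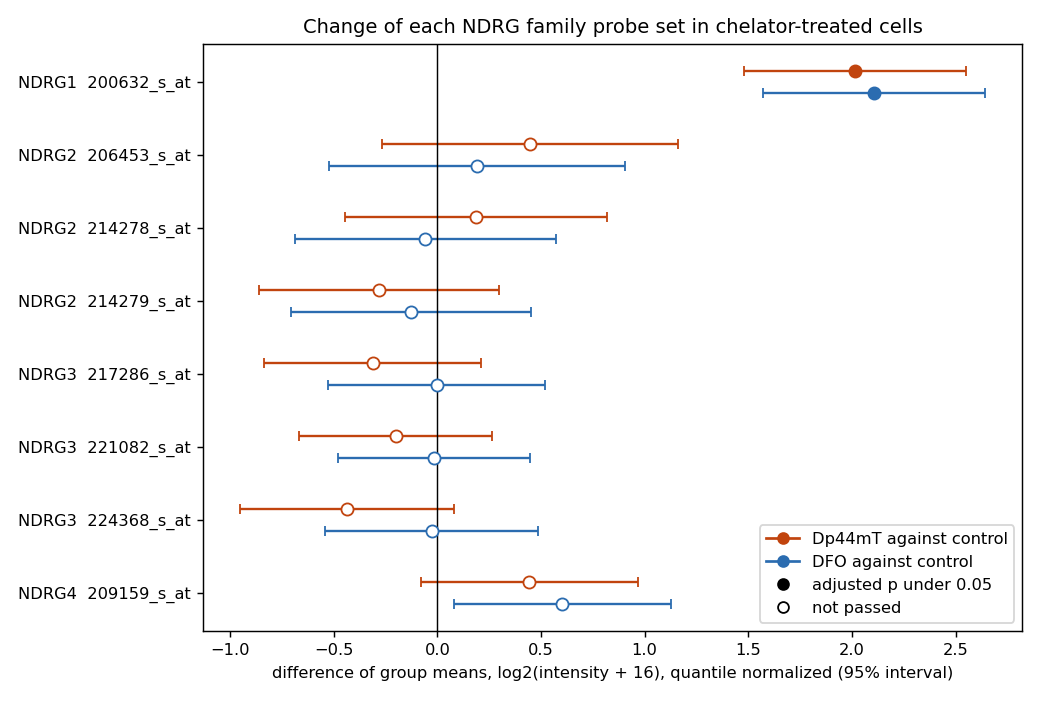
Difference of group means on the log2 scale (horizontal axis) for each of the 8 probe sets (vertical axis), in Dp44mT and DFO against control, with 95% intervals of limma's moderated test; filled points have an adjusted p under 0.05. NDRG1 is filled in both, at 2.02 and 2.11, and the other 7 probe sets lie between −0.44 and 0.60.

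Ratios between members on the same array do not change with a scaling factor per array. A brightness difference that depends on the level is not removed by them. For 217286_s_at of NDRG3 in Dp44mT, the difference from control was −0.31 after quantile normalization and −0.64 with array medians set equal. The part of such a brightness difference in the ratios was not tested. Each ratio is read only across arrays, since probe sets differ in how strongly they bind. NDRG1 over NDRG3, taken as the geometric mean of its 3 probe sets, was 13.3 and 22.0 in Dp44mT, 10.1 and 15.7 in DFO and 3.03 and 2.72 in control. NDRG1 over NDRG4 was 27.5 and 42.8 in Dp44mT, 23.2 and 34.8 in DFO and 11.4 and 10.2 in control. In both ratios every chelator array lay above both controls, and the set 2 chelator arrays were the highest of their group. NDRG4 over NDRG3 was 0.483 and 0.514 in Dp44mT, 0.436 and 0.452 in DFO and 0.265 and 0.266 in control. The 3 groups did not overlap in this ratio. Such separation is common here among single probe sets: 61.3% in Dp44mT against control, 44.8% in DFO against control and 25.4% between the chelators. The share among ratios of probe sets was not counted. All ratios above are given as a description, with no test.

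**Figure D4:**
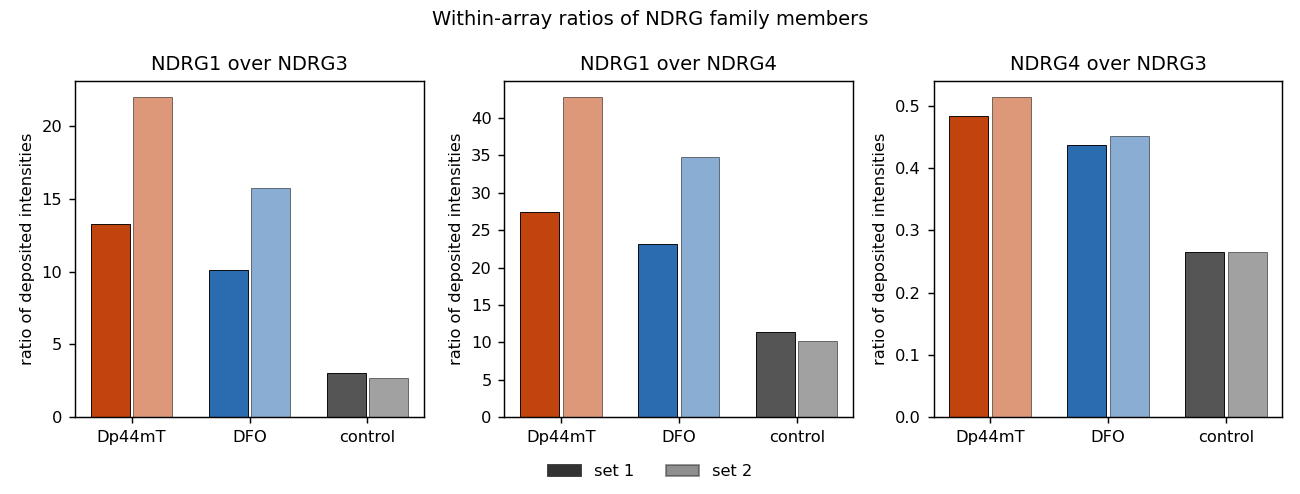
Ratio of deposited intensities on each array (vertical axes, from 0) for NDRG1 over NDRG3, NDRG1 over NDRG4 and NDRG4 over NDRG3, in the 2 Dp44mT, 2 DFO and 2 control arrays; solid bars are set 1 and pale bars set 2. All chelator bars exceed both control bars, from 10.1 to 22.0 against 2.72 and 3.03 in the first ratio and from 0.436 to 0.514 against 0.265 and 0.266 in the last.

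Upstream regulators of NDRG family genes, not of NDRG1 alone, were read from a list of 17, of which 14 could be tested. In Dp44mT 5 rose, 0 fell and 9 did not pass, and the same counts held in DFO, with medians of 0.70 and 0.63 over those tested, against 0.01 and −0.03 over all probe sets. The 5 genes were the same in both comparisons, which share the control arrays. EPAS1, which encodes HIF-2 alpha, rose 3.41-fold in Dp44mT and 3.99-fold in DFO (limma adjusted p = 0.0414 and 0.0497). EGLN1, the main prolyl hydroxylase that marks HIF alpha subunits for degradation, rose 4.61-fold and 5.08-fold, and EGLN3, a second such enzyme, 5.48-fold and 6.73-fold. The zinc finger factor EGR1 rose 11.2-fold and 7.03-fold, and the stress factor ATF3 24.6-fold and 21.1-fold. Over 15 processing alternatives the 5 kept their direction, but EPAS1 passed in 6 in Dp44mT and 4 in DFO (log2 values down to 1.08 and 1.62), EGLN3 in 8 and 5, EGLN1 in 9 and 7, EGR1 in 10 and 8 and ATF3 in 11 and 11. HIF1A itself differed by −0.08 and 0.13, and MYC, a known repressor of NDRG1, by 0.09 and −0.04 on the log2 scale, and neither passed (limma adjusted p between 0.809 and 0.966). MYCN differed by 2.00 and 1.56 and did not pass, and its difference was −0.43 and −0.45 in set 1 against 4.43 and 3.56 in set 2.

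Promoter sequences from RefSeq (GRCh38.p14) are shown for NDRG4, the other member with all chelator arrays above control after normalization, and for EGLN1, the listed HIF regulator whose values most resembled those of NDRG1. Each runs 5′ to 3′ on the gene's strand, from 250 bases before to 50 after an annotated start. Capitals mark matches to ACGTG or GCGTG, the core of the HIF binding motif, on either strand, with matches on both strands counted separately. The NDRG4 window is chr16:58463465-58463764, plus strand, and the EGLN1 window is chr1:231422238-231422537, minus strand.
NDRG4: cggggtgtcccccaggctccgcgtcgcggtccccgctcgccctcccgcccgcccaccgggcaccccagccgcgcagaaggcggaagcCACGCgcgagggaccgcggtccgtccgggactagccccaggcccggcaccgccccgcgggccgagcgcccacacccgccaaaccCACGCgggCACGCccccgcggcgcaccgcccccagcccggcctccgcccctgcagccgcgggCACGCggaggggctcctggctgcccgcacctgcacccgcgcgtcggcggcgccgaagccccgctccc
EGLN1: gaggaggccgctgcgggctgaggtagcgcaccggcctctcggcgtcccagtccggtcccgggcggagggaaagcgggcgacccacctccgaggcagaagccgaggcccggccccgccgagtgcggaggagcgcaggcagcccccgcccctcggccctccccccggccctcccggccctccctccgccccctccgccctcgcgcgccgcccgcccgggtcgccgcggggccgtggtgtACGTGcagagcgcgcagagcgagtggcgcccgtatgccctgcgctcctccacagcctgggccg
The NDRG4 window held 4 matches, and the EGLN1 window 1. Of 35116 windows of the same length in the table, 48.4% held at least 1 match and 4.4% at least 4. Of the other 3 NDRG4 windows none held a match. The NDRG4 window shown was picked for its matches, so the share per window is no like measure for it. Of the 5 NDRG2 windows, 3 held 1. Windows of NDRG1 and NDRG3 are not reported here, so the motif counts do not cover the whole family. A match is a description of the letters and no evidence of binding.

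Kinases that phosphorylate NDRG proteins were mostly without a call. Of 6 tested, SGK1, which phosphorylates NDRG1 and NDRG2, rose in Dp44mT and the other 5 did not pass, while 0 passed in DFO. SGK1 read 161 and 126 units of deposited intensity in Dp44mT, 143 and 125 in DFO and 33.1 and 23.0 in control. It rose 4.88-fold in Dp44mT (limma adjusted p = 0.0342), and the DFO difference was 1.94 on the log2 scale (adjusted p = 0.0749). In the comparison of the chelators with each other 0 of the 6 passed. There 0% of all probe sets passed, so that count cannot tell whether the kinases differ between the chelators. For SGK1, Dp44mT minus DFO was 0.34 on the log2 scale (SE 0.29, limma adjusted p = 0.969). GSK3B, which phosphorylates NDRG1 after SGK1, had differences of 0.49 and 0.26 in Dp44mT and DFO. The medians of the 6 were 0.23 and −0.08.

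Among 25 tested genes that NDRG proteins bind or are reported to act on, ERRFI1 rose in both chelators and CD24 fell in Dp44mT. The counts were 1 up, 1 down and 23 not passed in Dp44mT, and 1 up, 0 down and 24 not passed in DFO. Of all probe sets, 1.07% rose and 0.563% fell in Dp44mT, and 0.568% and 0.0195% in DFO. Medians of the 25 were 0.46 and 0.25, against 0.01 and −0.03 over all probe sets. They were uneven between the sets. Over the 27 listed genes with a probe set, set 1 gave 0.08 for Dp44mT and 0.14 for DFO. Set 2, with the dim chelator arrays, gave 0.76 and 0.46. ERRFI1, which encodes the EGF receptor inhibitor MIG6, rose 6.21-fold and 5.93-fold (limma adjusted p = 0.0154 and 0.0196). CD24, a surface glycoprotein whose level NDRG2 is reported to lower, read 1027 and 394 units in Dp44mT, 2487 and 1280 in DFO and 3562 and 4768 in control. It fell by 1.99 on the log2 scale in Dp44mT (limma adjusted p = 0.0247), with a difference of −0.84 in DFO (adjusted p = 0.243). Both DFO arrays also lay below both controls. For CD24, Dp44mT minus DFO was −1.15 and did not pass (limma adjusted p = 0.969), in a comparison where 0% of all probe sets passed. CDH1, which encodes the E-cadherin that NDRG1 helps to recycle, had differences of 0.89 and 0.88 (adjusted p = 0.0911 and 0.192), and LDHA, whose product makes the lactate that NDRG3 binds, 0.81 and 0.78 (adjusted p = 0.114 and 0.26). CDKN1A, the gene of the cyclin-dependent kinase inhibitor p21, differed by 1.63 and 1.68 (adjusted p = 0.101 and 0.204).

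The rise of NDRG1 was set beside known responses to iron loss and hypoxia. Of 9 such genes tested, 8 rose and 0 fell in Dp44mT and likewise in DFO, with medians of 2.33 and 2.49, a list chosen because such genes are known to respond. VEGFA, an angiogenic factor, rose 5.01-fold in Dp44mT and 5.63-fold in DFO, and the hexokinase gene HK2 4.71-fold and 4.55-fold. The glucose transporter gene SLC2A1 rose 3.23-fold and 4.02-fold, and BNIP3, a mitophagy receptor gene, 2.82-fold and 3.25-fold, beside 4.05-fold and 4.31-fold for NDRG1. ADM, ANKRD37, PLOD2 and KDM3A had larger rises, between 8.39-fold and 21.9-fold. TFRC, the transferrin receptor gene, had differences of 0.70 and 0.84 and did not pass (limma adjusted p = 0.126 and 0.2).

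The 5 genes whose values most resembled those of NDRG1 were found by the root mean square difference over the 6 arrays, each profile centred on its own mean, among 16864 genes. They were ZNF292 (0.12 on the log2 scale), PPP2R5B (0.13), EGLN1 (0.14), EPAS1 (0.14) and TLE1 (0.15), with Pearson correlations between 0.991 and 0.996 as a description over 6 arrays that fall into a low control and a high chelator cluster. ZNF292 encodes a zinc finger protein, PPP2R5B a regulatory subunit of protein phosphatase 2A and TLE1 a transcriptional corepressor. Their Dp44mT differences ran from 1.77 to 2.28 and their DFO differences from 1.83 to 2.34. PPP2R5B did not pass in DFO (limma adjusted p = 0.0523), and the other calls had adjusted p between 0.0163 and 0.0497.

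**Figure D5:**
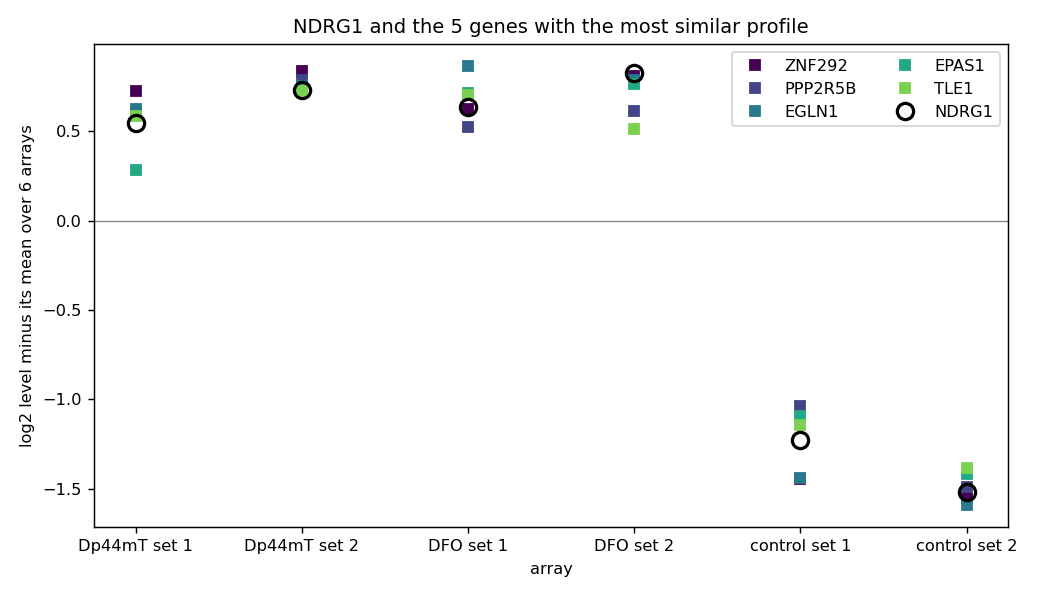
Level on each of the 6 arrays (horizontal axis) minus the gene's mean over the arrays, on the log2 scale (vertical axis), for NDRG1 (open circles) and the 5 most similar genes (squares). The 2 control arrays lie below −1 in every gene and the 4 chelator arrays above 0.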

How the data were processed

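Total RNA was the starting material, and the biotin-labelled sample made from it was hybridized to U133 Plus 2.0 arrays. The authors deposited 1 linear intensity per probe set and array, for which the submitters' processing notes name Affymetrix Expression Console 1.1. How probes were summarized and arrays normalized is not given in the sources used here. Groups and set numbers follow the sample titles. Probe sets were matched to symbols with the platform annotation: 41097 had 1 symbol, 1801 several and 11777 none.

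Intensities were transformed as log2(intensity + 16) and quantile normalized with limma 3.58.1 in R 4.3.3. Probe sets whose mean lay below the 25th percentile, 5.55, were left out, which left 41006. The 3 groups were fitted together with limma (3 residual and 2.52 prior degrees of freedom), its moderated test was two-sided, and p-values were adjusted by Benjamini-Hochberg over all probe sets tested, with a threshold of 0.05. The fit was run on simulated data with independent normal noise, which checks the calculation only. That simulation held no brightness difference and no deviation shared between arrays of a set. Precision is limited by the 2 arrays per group, with 95% intervals of ± 0.68 at the median.

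Each listed gene was represented by its single-symbol probe set with the highest mean. Named were all members, up to 6 listed genes past the threshold or else up to 3 with the smallest p, and the 5 nearest profiles; HIF1A, MYC, MYCN, GSK3B, CDH1, LDHA, CDKN1A, SLC2A1, BNIP3, TFRC and the fibroblast and neuroendocrine genes were named after their values were seen. The members and lists were chosen with earlier results of these data known. Listed genes without a single-symbol probe set, such as SGK3 and CA9, were not analysed here. Alternatives were the scaling, pseudocounts of 1 and 64, the filter, the variance prior, the set number as a block, the handling of several probe sets, and leaving out arrays.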

Additional observations from a re-analysis of the deposited data

How the results depend on the processing

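NDRG1 differed from control upward in all 17 alternatives in each chelator, and passed in 12 of them in Dp44mT (limma adjusted p between 0.00175 and 0.379) and 10 in DFO (between 0.00202 and 0.649). It did not pass on the deposited scale (1.51 in Dp44mT, 1.75 in DFO), where 0 of the 8 family probe sets passed in either. Leaving out 1 array gave 1.87 to 2.16 in Dp44mT and 1.96 to 2.25 in DFO, with 0 to 1 and 0 family probe sets passing. Without both set 2 chelator arrays, an alternative added after seeing the data in which the lone arrays are assumed to vary like the controls, the values were 1.92 and 2.01 (adjusted p = 0.0239 and 0.0452). The cause of these changes, the smaller number of arrays included, was not tested.

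Of 15 alternatives, the listed chelation and hypoxia genes called passed in 6 to 11 in Dp44mT and 5 to 11 in DFO, ERRFI1 in 10 and 10, and SGK1 and CD24 in 10 in Dp44mT. The number of probe sets that passed was 670 in Dp44mT and 241 in DFO. It was 39 and 31 on the deposited scale, 363 and 144 with array medians set equal, 342 and 156 with a pseudocount of 1, 1434 and 437 with 64, and 1866 and 571 with an intensity trend. Without both set 2 chelator arrays it was 3164 and 357, and without 1 array 0 to 469 and 0 to 57. Of those that passed, 65.5% in Dp44mT and 96.7% in DFO were higher, against 38.5% and 77.4% on the deposited scale and 50.4% with medians equal in Dp44mT.

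With the set number as a replicate block, 1243 and 208 passed, and NDRG1 kept its calls (adjusted p = 0.0338 and 0.0487). The labels do not say what the set numbers mark. Deviations between sets correlated at 0.83 for Dp44mT with DFO, −0.33 for Dp44mT with control and −0.23 for DFO with control. A block with the control numbers exchanged, added after seeing the data, gave 5790 and 809.

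Of the members that did not pass, signs turned on the deposited scale for 206453_s_at in DFO (−0.042) and for 214278_s_at (−0.16) and NDRG4 (−0.12) in Dp44mT. Without both set 2 chelator arrays they turned in DFO for 206453_s_at (−0.091), 217286_s_at (0.068) and 224368_s_at (0.053). Leaving out 1 array gave, in DFO, −0.091 to 0.47 for 206453_s_at, −0.27 to 0.15 for 214278_s_at, −0.074 to 0.068 for 217286_s_at, −0.051 to 0.018 for 221082_s_at and −0.11 to 0.053 for 224368_s_at, and in Dp44mT −0.025 to 0.40 for 214278_s_at. For Dp44mT minus DFO it gave −0.19 to 0.0042 for NDRG1, −0.024 to 0.54 for 206453_s_at and −0.39 to 0.081 for 214279_s_at.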
